A study of Mus musculus with 16 samples.

Results

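Gene expression in the proximal colon of germ-free (GF) mice, which carry no microbes, was compared with that of specific pathogen-free (SPF) mice, which carry a conventional gut microbiota. The comparison takes 8 arrays of 16 in the series, the 4 labelled GF and the 4 labelled SPF, with all probes. Both groups were wild type C57Bl/6 mice with no treatment named in their labels, and the tissue is given as smooth muscle of the proximal colon. The labels give no age or sex for these arrays. The series' design text gives 8 to 10 weeks for SPF mice put on loperamide, of both sexes, and calls the GF mice age matched. The other 8 arrays come from colonized GF mice, which received cecal contents from control mice or from mice with loperamide-induced constipation (PIC), killed 4 weeks later, and enter here only as a source of spread and as levels set beside those of GF and SPF mice. GF and SPF mice can differ in housing, diet and hour of dissection as well as in microbes, and in this design these cannot be told apart.

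The gut wall meets its microbes through an epithelium of absorptive, secretory and hormone cells, under which plasma cells make IgA and macrophages sample antigen. Colonization is known to bring IgA-producing plasma cells, macrophage maturation and antigen presentation to the mucosa. The epithelium takes up nutrients and bile acids through carriers of its brush border, and oxidizes and conjugates foreign compounds with cytochromes P450, transferases and reductases. Beneath it lie connective tissue and the muscle coats, whose tension is set by the actin and myosin of smooth muscle and by the elastin and collagen around it.

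Each array is an Illumina BeadChip, on which a probe's intensity is the mean over many beads (a median of 37 to 39 on these arrays). Values are log2 intensities after background correction and quantile normalization, n is 4 arrays per group, and a difference of 1 is a doubling. A gene was called where its adjusted p was under 0.05 in 1 limma fit over all 16 arrays with Benjamini-Hochberg adjustment over 14102 probes, and every adjusted p below comes from limma. Above background were 12364 to 13238 probes on GF arrays and 13326 to 13942 on SPF arrays. SPF replicates 2 and 4 stood apart. Both lay at 48.1 on the first principal component, SPF replicates 1 and 13 at 13.6 and 7.0, and GF arrays at -28.2 to 6.0. Their mean log2 level of 19 contractile genes of smooth muscle was 11.64 and 11.58, against 10.90 to 10.91 on the other SPF arrays and 10.25 to 11.00 on GF arrays, and that of 14 genes of colonic epithelium was 10.80 and 11.06, against 11.34 to 11.40 and 11.16 to 11.61. Epithelial genes were thus bright on every array, although the labels name smooth muscle. Xist, the RNA that coats an inactive X, was above 6 on SPF replicate 4 alone of the 8 arrays (6.64). Calls are therefore also given without SPF replicates 2 and 4. Nothing in the labels says whether arrays are separate animals, so the p-values speak only for the scatter of these arrays, which may be technical. The fit pools this scatter over all 16 arrays, with those of recipients. Estimated array weights, lower for more scatter, were 0.39 to 0.61 for SPF replicates 2 and 4 and GF replicates 2 and 3. They were 0.91 to 1.66 for the other GF and SPF arrays and 0.63 to 2.35 for recipients. In a fit of the 8 GF and SPF arrays alone 696 probes were called, against 2813 in this fit. That fit also holds fewer arrays.

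Of 9862 genes, 1076 were called higher in SPF mice (10.9%) and 942 lower (9.55%). Without SPF replicates 2 and 4, 214 of the former (2.17%) and 200 of the latter (2.03%) were called in the same direction. In the fit of the 8 GF and SPF arrays alone, 217 of the former and 243 of the latter were called. On 1862 genes (18.9%) the 4 SPF values did not overlap the 4 GF values. These shares of all genes are the background for each list count given below. The median log2 fold change of all genes was 0.01. It was -0.10 when arrays were scaled to equal medians over the tested probes in place of equal distributions, and 0.07 with medians over all probes. The plot of the leading genes shows the 12 changes in each direction that were largest among genes called in this fit and in a fit of the 8 arrays alone, with groups that do not overlap. For these genes the separation of the groups follows from that rule.

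**Figure D1:**
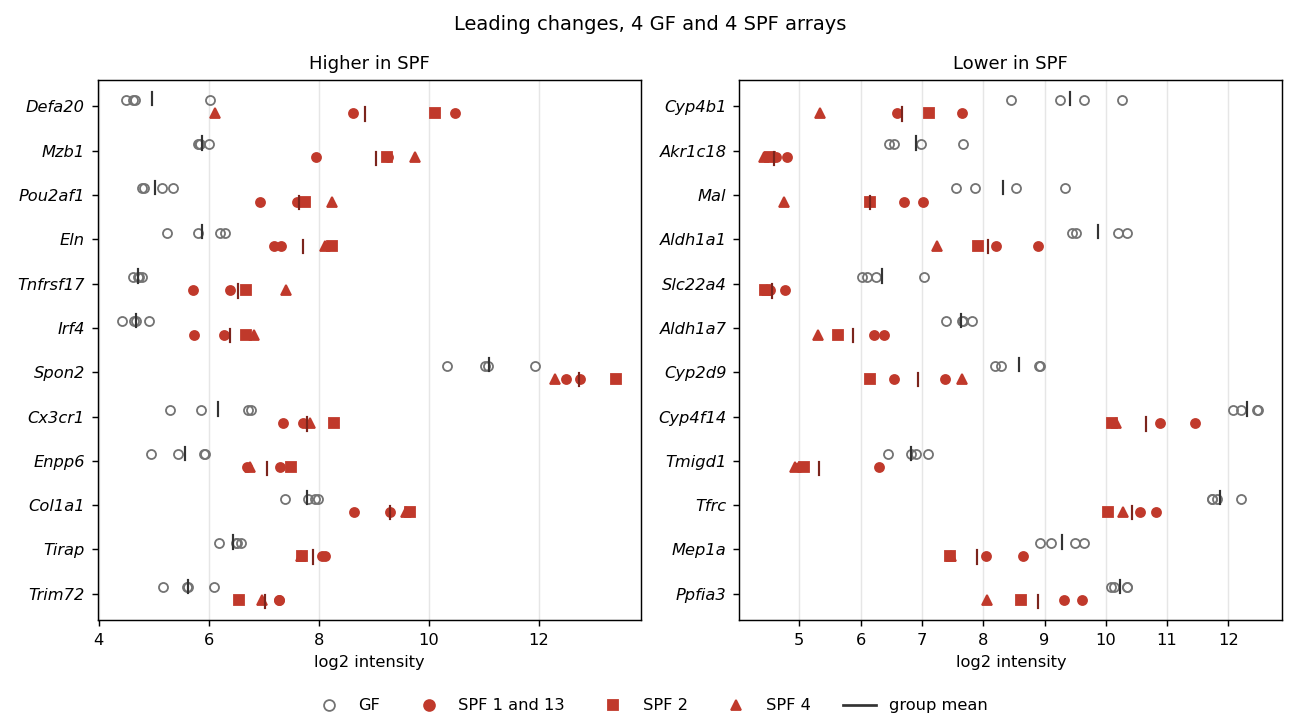
Log2 intensity of the 12 genes with the largest increase (left) and decrease (right) in SPF mice by that rule, 1 point per array, with open circles for GF, filled symbols for SPF (squares SPF 2, triangles SPF 4) and ticks at group means. Mzb1 lay between 5.81 and 6.01 on GF arrays and between 7.95 and 9.75 on SPF arrays, and Tfrc between 11.73 and 12.21 and between 10.03 and 10.82.

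Genes of antibody-secreting cells and B cells were higher in SPF mice. Of 21 measured genes of the list, 10 were called higher and 1 lower, against 10.9% and 9.55% of all genes, with a median log2 fold change of 0.45. Also called without SPF replicates 2 and 4 were 6 higher and 1 lower, against 2.17% and 2.03% of all genes. In the 8 arrays alone 9 were called higher and 1 lower. Mzb1, a chaperone of antibody-secreting cells, had log2 values of 5.82, 5.81, 6.01 and 5.84 on the GF arrays and 7.95, 9.23, 9.25 and 9.75 on SPF replicates 1, 2, 13 and 4. Its SPF mean exceeded its GF mean 9.01-fold (a log2 difference of 3.17, SE 0.32, adjusted p = 0.000139). Pou2af1, the coactivator of octamer factors in B cells, had GF values of 5.35, 4.79, 5.15 and 4.83, of which 2 were above background, and SPF values of 6.93, 7.75, 7.60 and 8.24, a 6.06-fold increase (SE 0.24, as all SE on the log2 scale, adjusted p = 0.000124). In both genes SPF replicate 1 had the lowest SPF value and SPF replicate 4 the highest, and the lowest SPF value lay more than 1 log2 unit above the highest GF value.
Tnfrsf17, the receptor BCMA of plasma cells, stayed below background on the GF arrays (4.63 to 4.79) and rose above it on each SPF array (5.71, 6.68, 6.38 and 7.40), at least 2.65-fold higher (adjusted p = 0.000765). For such a bound, an array without detection takes the lowest signal detected on it, or its own signal if that is larger. Irf4, a transcription factor of plasma cell differentiation, was likewise below background on the GF arrays (4.43 to 4.92) and detected on the SPF arrays (5.74, 6.67, 6.28 and 6.83), at least 2.37-fold higher (adjusted p = 0.000373). Probes were kept when detected on 4 or more arrays, which the SPF arrays alone can meet for Tnfrsf17 and Irf4. In a bulk sample, more cells of a type and more RNA per cell cannot be told apart.
Components of the B cell receptor changed less. Cd79a, its alpha signalling chain, was 2.34-fold higher (SE 0.20, adjusted p = 0.00179), with 1 of 4 GF arrays above background. Folds of genes above background on some arrays of a group use the measured value of every array and depend on the background correction. Cd79b, the beta chain, rose from 6.14 to 6.49 in GF mice to 6.75, 7.60, 7.09 and 7.95 in SPF mice, and its call ended without SPF replicates 2 and 4 (0.61, adjusted p = 0.198). Ly6d, a surface protein of B lineage precursors and of some epithelia, was 2.05-fold higher (adjusted p = 0.00141). Blnk, the adaptor that links that receptor to its kinases, was the list's only gene called lower. It fell from 8.57, 8.54, 8.29 and 7.82 in GF mice to 7.20, 6.95, 7.48 and 7.48 in SPF mice, 2.04-fold (adjusted p = 0.00102), and by 0.97 on the log2 scale by its other probe (adjusted p = 0.000903).
Of 11 measured genes along the route of IgA, 4 were called higher and none lower, against 10.9% and 9.55% of all genes, with a median of 0.50. None of the 4 remained called without SPF replicates 2 and 4. Leaving out GF replicate 2 gave 1 call, and SPF replicate 2 or 4 gave 2. The 8 arrays alone gave 1. Tnfsf13b, which encodes the B cell survival factor BAFF, was 1.5-fold higher (SE 0.13, adjusted p = 0.00755). Pigr, the receptor that carries IgA across the epithelium, had GF values of 10.45 to 10.85 and SPF values of 11.01, 10.82, 11.36 and 11.18, which overlap by 1 array, and a fold of 1.42 (adjusted p = 0.0434). The call of Pigr ended in 6 of the 8 fits that leave out an array, all but those without GF replicate 4 or SPF replicate 2, and the log2 fold change of 0.50 became 0.43 (adjusted p = 0.074) and 0.26 (adjusted p = 0.317) with median scaling over all and over the tested probes. Itgb7, an integrin chain that directs lymphocytes to the gut, was 1.62-fold higher (adjusted p = 0.0233). Cxcr4, the chemokine receptor that holds plasma cells near its ligand, rose 1.70-fold (adjusted p = 0.00614). It was one of 5 genes called higher, with 1 called lower, of 45 chemokines, interleukins and receptors, a share near that of all genes called higher (10.9%).
Several chaperones were higher as well. Of 28 genes of protein folding and endoplasmic reticulum stress, 8 were called higher and 1 lower, against 10.9% and 9.55% of all genes, with a median of 0.13. Also called without SPF replicates 2 and 4 were 3 higher and 0 lower. In the 8 arrays alone 2 were called higher. With scaling over the tested probes the median was -0.06, with 7 called higher and 3 lower. Calr, the calcium-binding chaperone calreticulin, was 1.73-fold higher (adjusted p = 0.00786), and Pdia4, a disulphide isomerase, 1.43-fold (SE 0.09, adjusted p = 0.00305). Xbp1, the transcription factor that enlarges this pathway in secretory cells, was 1.28-fold higher (SE 0.10, adjusted p = 0.0239). This call of Xbp1 depended on scaling, with log2 fold changes of 0.17 (adjusted p = 0.404) and 0.01 (adjusted p = 0.97) with median scaling over all and over the tested probes, and it also ended without GF replicate 3, SPF replicate 2 or SPF replicate 4, with the epithelial covariate and in the 8 arrays alone.

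**Figure D2:**
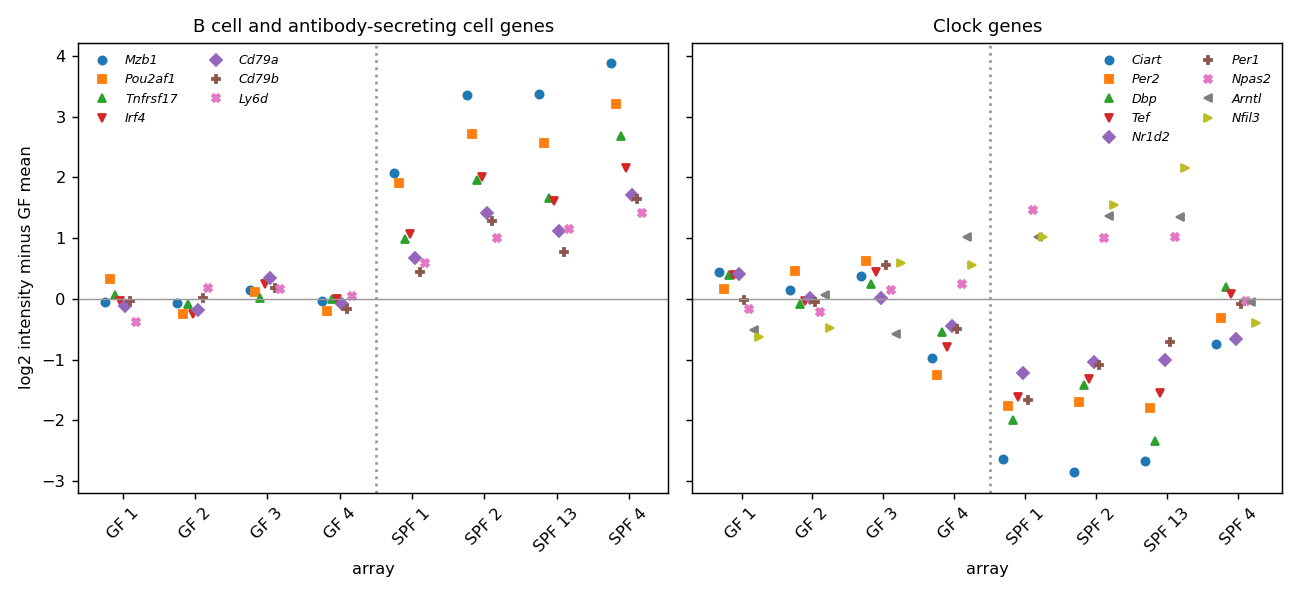
Log2 intensity minus the GF mean of the same gene on each array, for 7 genes of B cells and antibody-secreting cells (left) and 9 clock genes (right), 1 symbol per gene. The 7 genes on the left, chosen from 21 measured in the list, are higher on each SPF array, with SPF 1 nearest to the GF arrays. Blnk, the list's gene called lower, is not shown. The clock genes are shifted on SPF 1, 2 and 13 while SPF 4 lies nearer to the GF mean.

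T cells and interferon-induced genes gave no calls. By limma, 0 of 19 genes of T and NK cells were called (median 0.13), with 2 at an unadjusted p under 0.05, and 0 of 38 interferon-induced genes (median 0.09), with 4 at that unadjusted level. The methods' test passed 2 and 8 of them unadjusted and 0 of either list after Benjamini-Hochberg adjustment. With scaling over the tested probes the medians were -0.03 and 0.00 and 2 interferon-induced genes were called lower.

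Genes of MHC class II, which presents antigen to CD4 T cells, were higher on SPF arrays in nearly the whole list. Of 10 measured genes 8 were called higher, none lower, and on 8 the groups did not overlap, against 18.9% of all genes (median 0.84). H2-Ab1, the beta chain of the I-A molecule, had GF values of 10.58, 9.81, 10.34 and 10.44 and SPF values of 10.90, 11.86, 11.11 and 11.37, and was 2.02-fold higher (SE 0.27, adjusted p = 0.0167). Cd74, the invariant chain, was 1.98-fold higher (adjusted p = 0.0226), and H2-Eb1, the beta chain of I-E, 2.05-fold (adjusted p = 0.0102). Ciita, the coactivator that switches these genes on, was 1.64-fold higher (SE 0.23, adjusted p = 0.0431) and was called in 1 of the 8 fits that leave out an array. SPF replicate 2 was highest for each of these 4, and none of the 8 was called without SPF replicates 2 and 4, where the list median was 0.65. With single arrays left out, 2 to 6 were called, with 2 without GF replicate 2 or SPF replicate 2, and 1 was called with the epithelial level as a covariate. In the 8 arrays alone 5 were called. A short element of class II promoters, the Y box, was searched as CTGATTGG on both strands in the RefSeq promoter windows of GRCm38.p6, from 250 bases before to 50 after a start. It was found in 2 of 7 class II genes with a window and in 1271 of 27025 genes (4.7%). The 2 windows are shown 5′ to 3′, since they are of 2 genes of the list that a single letter pattern links, with the match in capitals.
H2-Aa, chr17:34287774-34288073, minus strand: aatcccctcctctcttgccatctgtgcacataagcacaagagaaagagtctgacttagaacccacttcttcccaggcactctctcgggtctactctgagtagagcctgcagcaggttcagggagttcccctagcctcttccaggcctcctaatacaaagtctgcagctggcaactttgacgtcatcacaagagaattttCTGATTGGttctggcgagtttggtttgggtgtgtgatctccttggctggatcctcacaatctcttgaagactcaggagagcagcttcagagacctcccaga
H2-Eb1, chr17:34305617-34305916, plus strand: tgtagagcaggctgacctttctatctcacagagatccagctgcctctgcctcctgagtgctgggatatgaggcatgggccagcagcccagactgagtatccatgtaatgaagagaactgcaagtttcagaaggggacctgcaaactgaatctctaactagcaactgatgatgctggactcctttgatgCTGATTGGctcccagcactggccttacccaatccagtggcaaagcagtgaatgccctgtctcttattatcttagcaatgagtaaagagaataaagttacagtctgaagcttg
A match is a description of these letters only. H2-Aa, the alpha chain of I-A, had GF values of 8.45, 7.46, 7.62 and 7.93 and SPF values of 8.40, 8.96, 8.75 and 8.86, a 1.84-fold difference (adjusted p = 0.0428) in which 1 GF array lay above 1 SPF array. Probes of this family can bind transcripts of related class II genes.
Of 21 genes of macrophages and dendritic cells, 9 were called higher and none lower (median 0.58), and 3 when GF replicate 2, SPF replicate 2 or SPF replicate 4 was left out. In the 8 arrays alone 1 was called, and 1 with the epithelial level as a covariate. Cx3cr1, the fractalkine receptor of resident gut macrophages, was the member called with and without SPF replicates 2 and 4. Its GF values were 6.71, 5.29, 5.85 and 6.77 and its SPF values 7.71, 8.27, 7.35 and 7.84, a 3.11-fold increase (SE 0.28, adjusted p = 0.00232). C1qc, a chain of the complement component C1q, was 1.82-fold higher (adjusted p = 0.02) and Mrc1, the mannose receptor, 1.66-fold (adjusted p = 0.0279). These 2 genes had SPF values of 9.67 and 9.39, and 9.48 and 9.33, on SPF replicates 2 and 4, and of 8.55 and 8.68, and 8.46 and 8.70, on SPF replicates 1 and 13. The GF ranges were 8.00 to 8.48 and 7.69 to 8.53, so that Mrc1 on SPF replicate 1 lay within the GF range and the other values on SPF replicates 1 and 13 just above it.

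Antimicrobial products showed changes in a few genes. Of 28 measured genes, 6 were called higher and 2 lower, against 10.9% and 9.55% of all genes, with a median of 0.13 (-0.05 with scaling over the tested probes). Also called without SPF replicates 2 and 4 were 3 higher and 2 lower. In the 8 arrays alone 2 were called higher and 1 lower. Defa20, an alpha-defensin, peptides made by Paneth cells of the small intestine, was at 4.63, 4.66, 6.03 and 4.5 on GF arrays, of which only replicate 3 was above background, and at 8.62, 10.10, 10.47 and 6.12 on SPF arrays. Its fitted difference was 3.87 (SE 0.68, adjusted p = 0.00257), 14.6-fold. Defa21 was not above background on the GF arrays and was detected on the 4 SPF arrays at 5.04 to 5.43, at least 1.10-fold higher (adjusted p = 0.000723). Probes were kept when detected on 4 or more arrays, which the SPF arrays alone can meet for Defa21. Its call is therefore not independent of that filter. Defensin genes are near-identical copies, and either probe may bind several of them. Slpi, a secreted inhibitor of neutrophil proteases, rose from 5.66, 6.51, 6.62 and 7.05 to 7.74, 8.56, 7.22 and 10.02, 3.81-fold (adjusted p = 0.00896, and 0.0751 without SPF replicates 2 and 4).
Saa1 and Saa2, acute-phase serum amyloid A proteins that the gut epithelium also makes, were lower in SPF mice, by 2.71-fold (adjusted p = 0.0138) and 1.97-fold (adjusted p = 0.00452). SPF replicate 4 had 9.12 for Saa1, within the GF range of 8.77 to 9.62, and the other SPF arrays had 7.12 to 7.64. The call of Saa1 ended without SPF replicate 2 (-1.22, adjusted p = 0.0535). Other well-known products of the colonized mucosa, singled out after their values were seen, varied between SPF arrays. Reg3b, a bactericidal lectin, had SPF values of 7.06, 10.84, 12.19 and 7.29 around GF values of 9.77 to 11.74 (log2 fold change -1.52, 95% interval -3.36 to 0.31, adjusted p = 0.226). Without SPF replicate 13 the log2 fold change of Reg3b was -2.47 and was called (adjusted p = 0.0204). Reg3g, its close relative, was at 4.83, 5.61, 7.53 and 4.38 in SPF mice and 5.16 to 5.56 in GF mice (adjusted p = 0.773). Ang4, an angiogenin of Paneth and goblet cells, and Itln1, the lectin intelectin 1, had their highest value on SPF replicate 13 (13.84 and 10.50), and their differences did not pass (adjusted p = 0.144 and 0.143). That of Ang4, 1.59 on the log2 scale, passed without SPF replicate 2 (2.41, adjusted p = 0.0263), with array weights (1.96, adjusted p = 0.0495) and with the epithelial covariate (2.38, adjusted p = 0.0473).
Of 31 genes that sense microbes, 3 were called higher and 2 lower, no larger a share than of all genes (10.9% and 9.55%). Tirap, the adaptor of Toll-like receptors 2 and 4, had GF values of 6.18 to 6.59 and SPF values of 8.05, 7.69, 8.12 and 7.68, a 2.72-fold increase (adjusted p = 0.00874), and 3.03 on the log2 scale by its other probe (adjusted p = 0.0113). Sigirr, a receptor that restrains signalling by interleukin 1 and Toll-like receptors, fell 1.51-fold (SE 0.12, adjusted p = 0.00485, and 0.0723 with median scaling). Of the chemokine and interleukin list, Il18, an interleukin of the epithelium, was 2.16-fold higher (adjusted p = 0.00498) and Il17rc, a subunit of the interleukin 17 receptor, 1.86-fold lower (adjusted p = 0.00257).

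**Figure D3:**
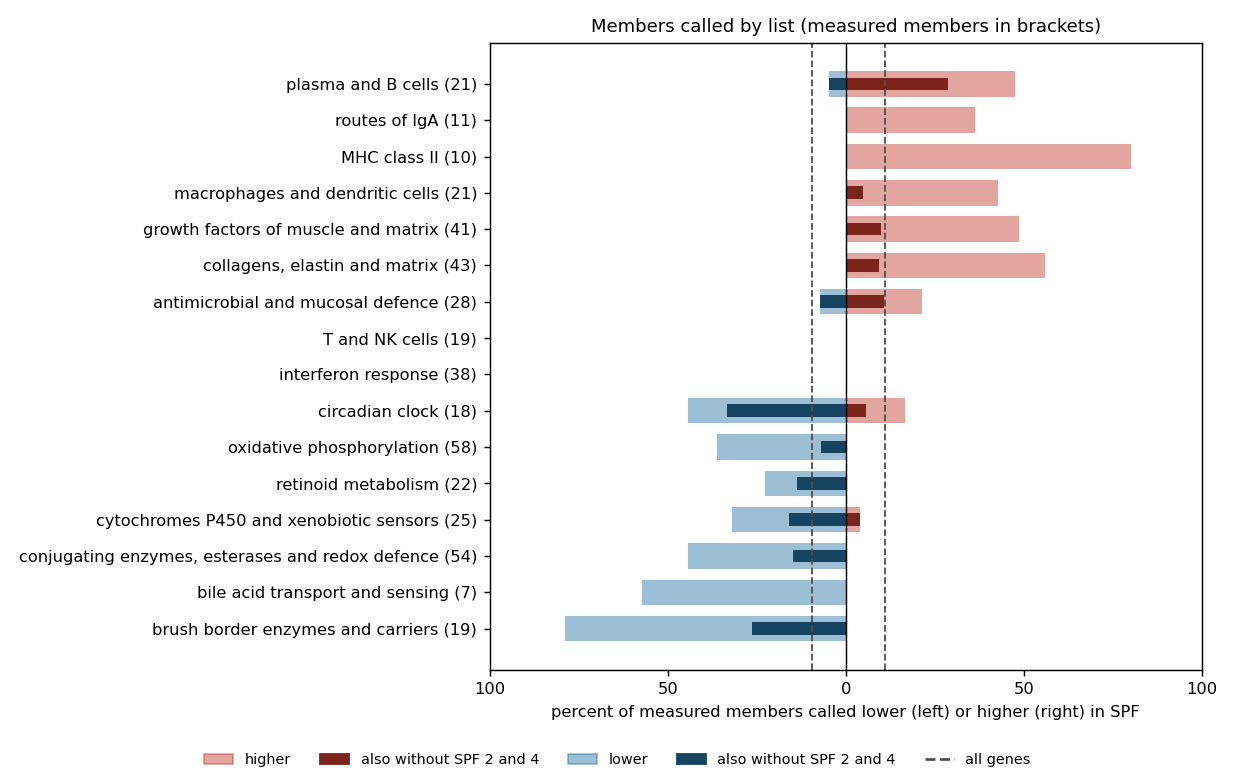
Percent of the measured members of 16 lists called lower (left, blue) or higher (right, red) in SPF mice, with dark inner bars for members also called without SPF replicates 2 and 4 and dashed lines at the shares of all genes (9.55% and 10.9%). The longest bars are those of MHC class II (8 of 10 higher) and of the brush border (15 of 19 lower), of which 0 and 5 have a dark inner part.

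Genes of the absorptive surface were lower in SPF mice. Of 19 measured brush border enzymes and carriers, 15 were called lower and none higher, with a median of -0.72, and 5 of them also without SPF replicates 2 and 4. In the 8 arrays alone 5 were called lower. Sis, sucrase-isomaltase, which splits disaccharides, fell from 11.09, 9.44, 10.71 and 10.08 to 5.76, 8.19, 9.34 and 5.33 (9.05-fold, SE 0.66, adjusted p = 0.00548, and 0.0553 in the 8 arrays alone). Slc6a19, the carrier of neutral amino acids B0AT1, was above background on the 4 GF arrays (5.31, 6.05, 6.66 and 5.55) and on no SPF array (4.59 to 4.69), at least 1.84-fold lower (adjusted p = 0.00141). Treh, trehalase, was also detected on GF arrays only (5.49 to 7.14 against 4.5 to 4.95), at least 2.03-fold lower (adjusted p = 0.0046, and 0.0531 in the 8 arrays alone). Mep1a, the alpha subunit of the protease meprin, was 2.63-fold lower (adjusted p = 0.00203), and Dpp4, dipeptidyl peptidase 4, fell from 9.67 to 10.20 in GF mice to 9.05 to 9.41 in SPF mice (1.65-fold, SE 0.11, adjusted p = 0.00131). These 5 genes are the members called both with and without SPF replicates 2 and 4. Probes were kept when detected on 4 or more arrays, which the GF arrays alone can meet for Slc6a19 and Treh, and for Slc22a4 and Akr1c18 below. SPF replicate 13 had the highest SPF value of Sis and of Mep1a.
The epithelial level was lower on SPF replicates 2 and 4, as given above. With it as a covariate, 8 of the brush border genes were called lower, as many as without SPF replicate 2. Of 14 epithelial markers 4 were called lower in the main fit. The covariate is the mean of these same markers, so their count with it (1) follows from its construction and says nothing further. The markers' median was -0.29 and without SPF replicates 2 and 4 -0.07, where that of the brush border was -0.57.
Of 7 genes of bile acid transport and sensing, 4 were called lower, none higher, against 9.55% and 10.9% of all genes. Slc51b, the beta subunit of the basolateral bile acid exporter OST, had GF values of 10.90, 10.91, 11.27 and 10.91 and SPF values of 9.39, 8.92, 10.74 and 8.63, a 2.98-fold decrease (SE 0.32, adjusted p = 0.00536). Slc51a, the alpha subunit, had a wider spread in SPF mice (8.43, 9.63, 11.01 and 5.06, against 10.30 to 12.19) and a fold of 6.98 (adjusted p = 0.0290). The call of Slc51a ended in the 8 arrays alone (adjusted p = 0.129), with the epithelial covariate (adjusted p = 0.084) and without GF replicate 1, 3 or 4. Nr1h4, the bile acid receptor FXR, was 1.82-fold lower (adjusted p = 0.0229). None of the 4 was called without SPF replicates 2 and 4, and 2 were when either was left out singly. In the fit of the 8 arrays alone none of the list was called.
Of 37 amino acid and other solute carriers, 8 were called lower and 5 higher, against 9.55% and 10.9% of all genes, so that the share called higher was near the background. Also called without SPF replicates 2 and 4 were 5 lower and 2 higher. Slc22a4, the ergothioneine carrier OCTN1, was above background on the GF arrays (6.11, 6.02, 7.03 and 6.25) and on no SPF array (4.52, 4.44, 4.77 and 4.47), at least 2.54-fold lower (adjusted p = 0.000362). Tfrc, the transferrin receptor, through which cells take up iron, fell from 11.73, 12.21, 11.73 and 11.81 to 10.82, 10.03, 10.56 and 10.28, 2.72-fold (SE 0.15, adjusted p = 0.000139), and by 1.33 on the log2 scale by its other probe. In both genes every SPF value lay below every GF value, and the groups did not overlap on 18.9% of all genes. For Tfrc, a leading gene, this separation was a condition of its choice. Slc13a2, a citrate carrier, was 2.22-fold lower (adjusted p = 0.00326) and Slc39a5, a zinc importer, 2.08-fold (adjusted p = 0.00119). Slc7a5, the large neutral amino acid transporter LAT1, rose 1.46-fold (SE 0.12, adjusted p = 0.00707).
Of 24 genes of lipid absorption, 6 were called lower and 1 higher, against 9.55% and 10.9% of all genes, and 2 and 1 of these also without SPF replicates 2 and 4. In the 8 arrays alone 3 were called lower and none higher. Cideb, a lipid droplet protein needed to load lipoproteins, was 2.08-fold lower (SE 0.16, adjusted p = 0.00112), and Dgat1, which completes triglyceride synthesis, 1.99-fold (adjusted p = 0.00488). Abcg5, a subunit of the transporter that returns sterols to the lumen, was the gene called higher. Its GF values were 6.09, 6.58, 5.22 and 5.80 and its SPF values 7.85, 6.80, 9.29 and 7.03 (3.53-fold, SE 0.42, adjusted p = 0.00948).

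Among enzymes that process foreign compounds and retinoids, most of those called were lower in SPF mice. Of 25 cytochromes P450 and their sensors, 8 were called lower and 1 higher (median -0.37), and 4 and 1 of these also without SPF replicates 2 and 4 (5 lower without SPF replicate 2). In the 8 arrays alone 3 were called lower and 1 higher. Cyp4b1, which oxidizes fatty acids and aromatic compounds, fell from 9.64, 8.45, 10.27 and 9.26 to 6.59, 7.11, 7.66 and 5.34 (6.64-fold, SE 0.44, adjusted p = 0.0016). Cyp4f14, an omega-hydroxylase of leukotrienes and fatty acids, fell from 12.21, 12.47, 12.48 and 12.07 to 10.89, 10.10, 11.46 and 10.17 (3.14-fold, SE 0.24, adjusted p = 0.00091). Cyp2d9 had the same fold of 3.14 (SE 0.27, adjusted p = 0.00184). Cyp2d22 was the member called higher, with GF values of 8.23, 7.82, 8.68 and 8.46 and SPF values of 9.31, 9.10, 9.51 and 9.25 (2.00-fold, SE 0.16, adjusted p = 0.0016). These 2 members of the Cyp2d family thus moved in opposite directions without overlap of the groups in either.
Of 54 conjugating enzymes, esterases and enzymes of redox defence, 24 were called lower and none higher, with a median of -0.45, and 8 also without SPF replicates 2 and 4 (16 with the epithelial covariate). In the 8 arrays alone 6 were called lower. Akr1c12, an aldo-keto reductase, lay at 12.48 to 12.81 on GF arrays and 11.29 to 11.85 on 3 of 4 SPF arrays, with SPF replicate 13 above these (2.02-fold, SE 0.13, adjusted p = 0.000454). Akr1c18, which inactivates progesterone, was above background on the GF arrays (7.67, 6.54, 6.99 and 6.46) and on no SPF array (4.42 to 4.80), at least 3.74-fold lower (adjusted p = 0.000362). Ephx2, soluble epoxide hydrolase, was 2.41-fold lower (SE 0.18, adjusted p = 0.000931), Nqo1, a quinone reductase, 1.87-fold (adjusted p = 0.00208), and Sult1d1, a sulfotransferase of amines, 2.08-fold (adjusted p = 0.00403). Ugt2b36, a glucuronosyltransferase, was 2.99-fold lower (adjusted p = 0.00673) and above background on 3 of 4 SPF arrays.
Of 22 genes of retinoid metabolism, 5 were called lower and none higher, against 9.55% and 10.9% of all genes, and 3 also without SPF replicates 2 and 4. In the 8 arrays alone 3 were called lower. Aldh1a1, which makes retinoic acid from retinaldehyde, had GF values of 10.35, 9.51, 10.20 and 9.45 and SPF values of 8.21, 7.92, 8.89 and 7.25 (3.51-fold, SE 0.31, adjusted p = 0.00248). Aldh1a7, its close relative, fell from 7.39, 7.65, 7.81 and 7.67 to 6.38, 5.63, 6.22 and 5.30 (3.36-fold, SE 0.22, adjusted p = 0.000373). The 2 genes are similar in sequence, so that each probe may bind both transcripts. Dhrs4, which reduces retinaldehyde, was 1.77-fold lower (adjusted p = 0.00527).
Mal, a protein of apical sorting, was 4.5-fold lower (adjusted p = 0.00472), and Ppfia3, a liprin, 2.52-fold (adjusted p = 0.00284).

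Mitochondrial genes shifted by smaller amounts. Of 58 subunits of oxidative phosphorylation, 21 were called lower and none higher, against 9.55% and 10.9% of all genes, with a median of -0.21 (-0.37 and -0.54 with median scaling over all and over the tested probes). On 28 of them the groups did not overlap, against 18.9% of all genes, and 4 were called without SPF replicates 2 and 4. This count moved with single arrays (5 without GF replicate 2, and 6 or 11 when SPF replicate 2 or 4 was left out) and with scaling (32 and 51 with those scalings). Sdhb, the iron-sulfur subunit of succinate dehydrogenase, was at 10.66 to 10.82 on GF arrays and 9.83 to 10.07 on SPF arrays (1.69-fold, SE 0.09, adjusted p = 0.000373). Atp5o, a subunit of the ATP synthase stalk, was 1.47-fold lower (adjusted p = 0.00152), and Ndufs4, a subunit of complex I, 1.39-fold (SE 0.08, adjusted p = 0.00203). Acaa2, the mitochondrial thiolase of fatty acid oxidation, fell from 10.52, 10.33, 10.41 and 10.50 to 9.58, 9.25, 9.61 and 9.39 (1.98-fold, SE 0.11, adjusted p = 0.000185). In its list of 30 genes, 5 were called lower and none higher, against 9.55% and 10.9% of all genes, and 1 also without SPF replicates 2 and 4.

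Clock genes differed between the groups in 11 of 18 measured members, 8 lower and 3 higher in SPF mice, against 9.55% and 10.9% of all genes. In the circadian loop, CLOCK or NPAS2 pairs with BMAL1 (gene Arntl) to switch on genes with E-boxes, among them Per and Cry, whose products then repress the pair, and Dbp and Tef, transcription factors that pass the rhythm on. Ciart, a repressor of CLOCK-BMAL1, had GF values of 8.24, 7.93, 8.16 and 6.81 and SPF values of 5.16, 4.94, 5.13 and 7.05, a 4.64-fold decrease (SE 0.39, adjusted p = 0.0025). Dbp fell from 12.22, 11.73, 12.06 and 11.27 to 9.82, 10.41, 9.49 and 12.02 (2.61-fold, SE 0.39, adjusted p = 0.0224). Per2 had GF values of 10.13, 10.43, 10.60 and 8.71 and SPF values of 8.20, 8.27, 8.17 and 9.65 (2.63-fold lower, adjusted p = 0.0224). In these 3 genes SPF replicate 4 lay within the GF range, GF replicate 4 was the lowest GF array, and SPF replicates 1, 2 and 13 lay together below the GF arrays.
Tef was 2.14-fold lower (adjusted p = 0.0286), Per1 1.84-fold (adjusted p = 0.0334), and Nr1d2, a repressor of Arntl, 1.97-fold without overlap of the groups (SE 0.23, adjusted p = 0.0101). Genes known to peak in the opposite phase had higher means in SPF mice. Npas2 was not above background on the GF arrays (4.58 to 5.05) and was detected on SPF replicates 1, 2 and 13 (6.26, 5.81 and 5.82) but not on SPF replicate 4 (4.77), at least 1.44-fold more (adjusted p = 0.0216). Arntl, with SPF values of 6.69, 7.03, 7.02 and 5.62 and GF values of 5.16, 5.74, 5.10 and 6.69, did not pass (adjusted p = 0.0944), and Nfil3, with 7.96, 8.49, 9.10 and 6.55 against 6.31 to 7.53, did not either (adjusted p = 0.0773). Both passed without SPF replicate 4 (Arntl 1.24, adjusted p = 0.0329, and Nfil3 1.57, adjusted p = 0.00724). Arntl also passed without GF replicate 4 (adjusted p = 0.0279), and Nfil3 without SPF replicates 2 and 4 (adjusted p = 0.0288), with median scaling, with array weights and with sex as a covariate. Of the 8 fits that leave out an array, Dbp was called in 5, Per2 and Npas2 in 4, Per1 in 3 and Tef in 2. Without SPF replicates 2 and 4, 6 of the members called lower and 1 called higher remained called. Without SPF replicate 4 the list had 8 members called lower and 3 higher, and without GF replicate 2 or SPF replicate 2 it had 3 or 2 lower and none higher. In the fit of the 8 arrays alone 2 were called, Ciart and Nr1d2. The hour of dissection is not given in the labels, and its part in these differences was not tested.
The E-box, searched as CACGTG (the same on both strands) in the windows described above, was found in 3 of 15 clock genes with a window, those of Ciart, Per1 and Tef, and in 2187 of 27025 genes (8.09%). The windows of these 3 genes, all called lower, are shown since they hold a match, with matches in capitals. Dbp and Per2, with larger folds than Tef and Per1, were not among the genes with a match.
Ciart, chr3:95882179-95882478, minus strand: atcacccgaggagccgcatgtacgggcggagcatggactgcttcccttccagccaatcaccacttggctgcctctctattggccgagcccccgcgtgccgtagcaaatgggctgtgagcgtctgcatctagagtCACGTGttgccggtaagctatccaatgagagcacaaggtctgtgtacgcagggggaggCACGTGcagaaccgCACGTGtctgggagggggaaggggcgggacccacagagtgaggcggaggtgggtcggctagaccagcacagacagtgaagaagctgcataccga
Per1, chr11:69098699-69098998, plus strand: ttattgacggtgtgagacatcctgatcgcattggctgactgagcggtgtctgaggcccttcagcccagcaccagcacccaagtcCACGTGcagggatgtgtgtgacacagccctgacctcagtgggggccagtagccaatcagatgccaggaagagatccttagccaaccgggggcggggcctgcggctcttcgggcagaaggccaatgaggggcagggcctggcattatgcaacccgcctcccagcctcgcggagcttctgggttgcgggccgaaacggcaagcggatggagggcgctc
Tef, chr15:81802423-81802722, plus strand: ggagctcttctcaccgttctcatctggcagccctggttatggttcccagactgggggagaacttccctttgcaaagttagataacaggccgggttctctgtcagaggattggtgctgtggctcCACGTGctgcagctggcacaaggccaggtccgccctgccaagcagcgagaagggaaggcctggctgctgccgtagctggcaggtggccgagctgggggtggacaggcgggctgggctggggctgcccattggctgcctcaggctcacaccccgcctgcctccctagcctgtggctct
The window of Ciart, the gene with the largest change of the list, holds 3 matches and those of the other two 1 each. A gene without a match in its window may hold one elsewhere.

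Of 24 enteroendocrine genes, 3 were called lower and 1 higher, against 9.55% and 10.9% of all genes, so that the counts stayed near the background. Sct, which encodes secretin, was 3.18-fold lower (adjusted p = 0.0152), with SPF replicate 4 at 8.24 and the other SPF arrays at 10.48 to 11.23. Cck, cholecystokinin, fell 2.06-fold (adjusted p = 0.00898). Transcripts of immediate early genes rise within minutes of handling or other stimuli. Of 20 such genes, 4 were called lower and 2 higher, against 9.55% and 10.9% of all genes, with a median of 0.01. Fos had GF values of 10.58, 10.66, 9.77 and 10.26 and SPF values of 9.40, 9.27, 9.76 and 8.48 (2.13-fold lower, adjusted p = 0.00778), and Atf3 was 2.50-fold lower (adjusted p = 0.0104). No call of this list held without SPF replicates 2 and 4 or in the fit of the 8 arrays alone.

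Genes of connective tissue, vessels and muscle were higher in SPF mice, most of them on SPF replicates 2 and 4. Of 43 genes of collagens, elastin and matrix, 24 were called higher and none lower (median 0.74), and 4 also without those replicates (14 without SPF replicate 2 alone). In the 8 arrays alone 8 were called. Eln, which encodes elastin, had GF values of 5.80, 5.24, 6.29 and 6.2 and SPF values of 7.31, 8.23, 7.18 and 8.12. It was 3.56-fold higher (SE 0.27, adjusted p = 0.00102, without SPF replicates 2 and 4 a log2 fold change of 1.36, adjusted p = 0.0164). Col1a1, which encodes a type I collagen chain, lay at 7.39 to 7.99 on GF arrays and 8.63 to 9.66 on SPF arrays (2.85-fold, adjusted p = 0.00102), and Mmp14, a collagenase of the cell surface, was 1.89-fold higher (SE 0.14, adjusted p = 0.00125). Spon2, a secreted matrix protein that also binds bacteria, rose from 11.07, 10.33, 11.02 and 11.93 to 12.75, 13.40, 12.49 and 12.29 (3.13-fold, adjusted p = 0.00281).
Growth factors and their receptors followed. Of 41 genes 20 were called higher and none lower (median 0.51), and 4 also without SPF replicates 2 and 4. The count was 9 when GF replicate 2 or SPF replicate 2 was left out and 11 when SPF replicate 4 was. In the 8 arrays alone it was 8. Grem1, a BMP antagonist of the muscle layers beneath the crypts, had GF values of 6.80, 6.56, 7.47 and 6.6 and SPF values of 7.75, 8.99, 7.59 and 8.62 (2.61-fold, SE 0.27, adjusted p = 0.00403). Sfrp1, a secreted Wnt antagonist, was 2.43-fold higher (SE 0.19, adjusted p = 0.00102), Fzd2, a Wnt receptor, 2.48-fold (adjusted p = 0.00331), and Pdgfrb, the PDGF receptor of pericytes and muscle, 1.76-fold (adjusted p = 0.0035). These 4 are the members called both with and without SPF replicates 2 and 4. Of 14 endothelial markers 7 were called higher, against 10.9% of all genes, among them the VEGF receptor Flt1 (1.77-fold, adjusted p = 0.00336). Of these 7, 1 was also called without SPF replicates 2 and 4, against 2.17% of all genes. The endothelial count was 3 without GF replicate 2 or SPF replicate 2, and 1 in the 8 arrays alone. Of 19 contractile markers 14 were called higher, and 1 in the 8 arrays alone. Without SPF replicates 2 and 4, 1 of the 14 remained called, the intermediate filament protein Synm (2.10-fold, adjusted p = 0.003, and 0.0429 without them).
Enpp6, a choline phosphodiesterase, was 2.84-fold higher (SE 0.20, adjusted p = 0.000615) and Trim72, a membrane repair protein of striated muscle, 2.63-fold (SE 0.21, adjusted p = 0.00104). Both held without SPF replicates 2 and 4 (1.44 and 1.66 on the log2 scale). Among genes named above, the calls of Tnfsf13b, Pigr, Itgb7, Calr, Xbp1, C1qc, Mrc1, Sigirr, Dgat1 and Cck also ended without these 2 arrays, with adjusted p between 0.0536 for Cck and 0.382 for Mrc1. In the 8 arrays alone, the calls of Tnfsf13b, Pigr, Itgb7, H2-Eb1, C1qc, Mrc1, Slpi, Saa1, Il18, Sis and Treh ended. Those of Abcg5, Ugt2b36, Slc7a5, Sct and Cck ended too. Across these genes, the adjusted p in that fit lay between 0.0515 for H2-Eb1 and 0.112 for Mrc1.

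**Figure D4:**
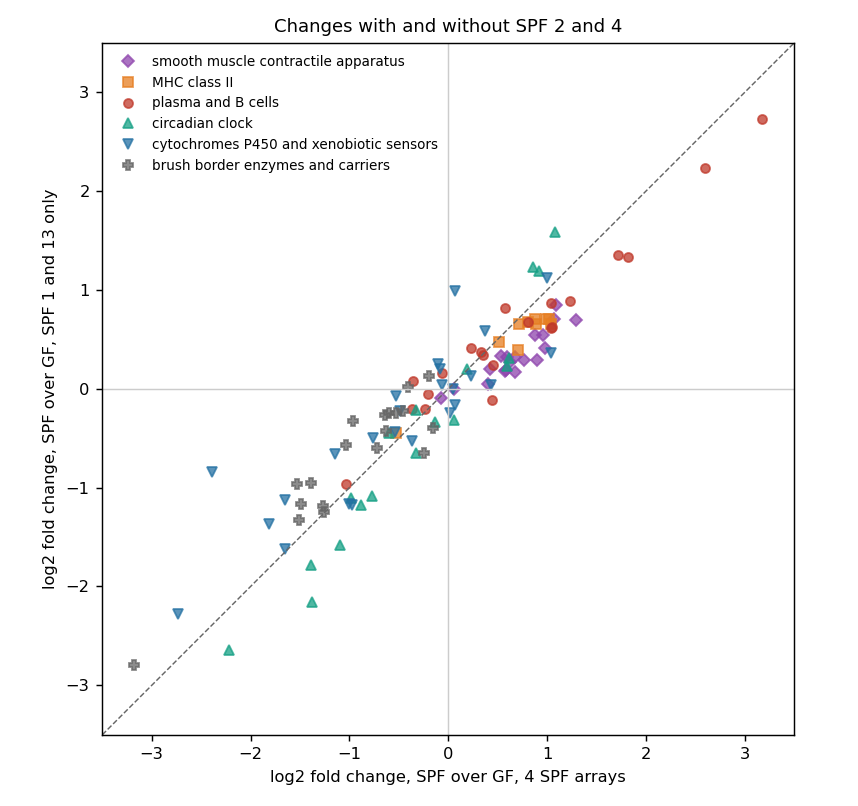
Log2 fold change of SPF over GF with 4 SPF arrays (x axis) and with SPF replicates 1 and 13 alone (y axis), for the measured members of 6 lists, with a dashed line where both are equal. Most contractile and MHC class II genes lie below that line on the right side, and the leading clock genes lie further from 0 on the y axis than on the x axis.

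Levels in the colonized GF mice were set beside these, with no test, since they were fitted with the same GF and SPF arrays. Means and SD are over 4 arrays. Mzb1 was at 9.21 ± 0.48 in recipients of control microbiota and 9.09 ± 0.47 in recipients of PIC microbiota, beside 9.04 ± 0.77 in SPF and 5.87 ± 0.10 in GF mice. Pou2af1 (7.32 ± 0.32 and 7.27 ± 0.29, beside 7.63 ± 0.54 and 5.03 ± 0.27) and Cx3cr1 (7.28 ± 0.31 and 7.35 ± 0.19, beside 7.79 ± 0.38 and 6.16 ± 0.71) were likewise nearer to SPF levels. Tfrc (10.63 ± 0.14 and 10.96 ± 0.04) and Slc6a19 (4.61 ± 0.05 and 4.47 ± 0.08) lay near the SPF means of 10.42 and 4.64. Reg3b was above both groups in recipients (13.72 ± 0.17 and 13.71 ± 0.59, beside 9.34 ± 2.57 in SPF and 10.87 ± 0.88 in GF mice).
Other genes stayed near GF levels 4 weeks after colonization. Defa20 was at 5.01 ± 0.59 and 4.87 ± 0.16, beside 8.83 ± 1.97 in SPF and 4.96 ± 0.72 in GF mice. Spon2 (10.66 ± 0.27 and 10.57 ± 0.38) and Slc51b (11.01 ± 0.37 and 11.20 ± 0.12) lay near the GF means of 11.09 and 11.00, and so did Blnk (8.24 ± 0.09 and 8.26 ± 0.07, beside 8.30). The clock genes Ciart (7.67 ± 0.24 and 7.36 ± 0.18) and Dbp (11.64 ± 0.27 and 11.51 ± 0.15) were near GF means of 7.79 and 11.82. Between the 2 lay Akr1c18 (5.88 ± 0.51 and 6.05 ± 0.40), Aldh1a7 (6.59 ± 0.34 and 6.57 ± 0.23) and Cyp4f14 (11.60 ± 0.21 and 11.62 ± 0.22).

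**Figure D5:**
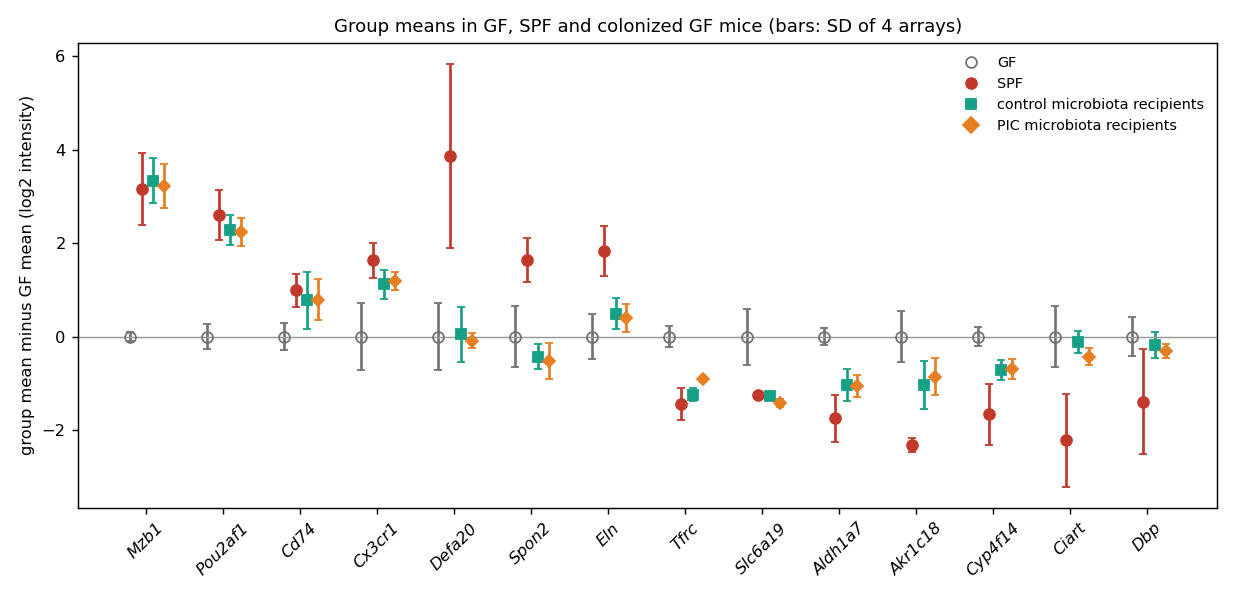
Group means of 14 genes minus the GF mean (log2 intensity), with bars for the SD of 4 arrays, in GF (open circles), SPF (filled circles), recipients of control microbiota (squares) and recipients of PIC microbiota (diamonds). Mzb1, Pou2af1, Tfrc and Slc6a19 in recipients lie near SPF, and Defa20, Spon2, Ciart and Dbp near GF.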

How the data were processed

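Total RNA of 16 samples had been hybridised to Illumina BeadChips. The authors deposited scanner intensities that are neither background-subtracted nor normalized, with a detection p-value and a bead number for each of 25697 probes, and log2 values for 16029 of them, normalized between arrays. The submitters' processing notes name limma, and its version, the build and the settings are not given in the sources used here. Intensities were processed with neqc of limma 3.58.1 (R 4.3.3, offset 16), which corrects the background and equalizes the distributions of all arrays. The deposited log2 values differed from these by at most 0.0251. Quantile normalization removes a shift shared by most genes, and the offset shrinks the folds of dim probes.

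A probe was kept when 4 or more arrays gave it a detection p-value below 0.05 (14102 probes). A gene above background in 1 group only can pass through the arrays of that group, so its call is not independent of this filter. With detection required on 8 arrays, 97 of the 103 called genes considered for naming were tested, and these 97 stayed called. limma fitted a mean per group over 16 arrays (12 residual degrees of freedom) and tested SPF minus GF, with Benjamini-Hochberg adjustment. The study's methods name Student's t-test, which was run as an alternative. Fits without SPF replicates 2 and 4 keep the other 14 arrays. A gene was its kept probe with the highest mean, named from the platform annotation, with 781 kept probes unnamed. Of 15096 rows of that annotation, 15091 matched RefSeq names (GRCm38.p6). Of 2018 called genes 530 had another kept probe, which was called the same way for 248 and the opposite way for 1. Closely related transcripts may share a probe.

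The genes named are the 12 that rose and the 12 that fell most among genes called in that fit and in the fit of 8 arrays alone whose groups did not overlap, up to 6 members of each gene list by smallest p, and members singled out after their values were seen. Members, lists and tests were chosen with earlier results of these data known. The test steps were also tested on simulated data with independent scatter, for each probe the same on all arrays. That run does not cover arrays of unequal scatter, such as those seen here (weights of 0.39 to 2.35). Alternatives were background, normalization, filter, samples in the fit, array weights, covariates, a replicate block and leaving out arrays. Their number, 4 per group, limits the precision.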

Additional observations from a re-analysis of the deposited data

Results flagged for a closer look

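In 218 groups of 4 arrays (the GF or SPF values of a gene considered for naming), 16 had 1 array whose gap to the nearest other exceeded the limit of Dixon's test at the 95% level. Chance gives about 1 in 20.

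Among SPF arrays, replicate 4 stood apart for Ciart (7.05) and Per2 (9.65), both nearer to GF values than the other SPF arrays, and for Cck (5.03), Cxcr4 (6.08) and Slc7a5 (8.65). SPF replicate 13 stood apart for Itln1 (10.50) and Tmigd1 (6.30), and SPF replicate 2 for Dhrs4 (5.95). Among GF arrays, replicate 3 was the high array for Defa20 (6.03), the one GF array with this transcript above background, and stood apart for Mzb1 (6.01), Fcrla (5.17) and Slc51b (11.27). GF replicate 2 stood apart for Tfrc (12.21), Nqo1 (9.05) and Flt1 (8.33), and GF replicate 4 for Slc13a2 (11.18).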

How the results depend on the processing

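Of 14102 probes, 2813 were called (1398 higher, 1415 lower) and 4909 had an unadjusted p under 0.05. The count was 696 with the 8 GF and SPF arrays fitted alone and 700 when these were also normalized and filtered alone, 1773 with array weights, 1277 with the epithelial level as a covariate, and 125 when the t-test of the methods was adjusted by Benjamini-Hochberg (3688 unadjusted). It was 671 without SPF replicates 2 and 4, and 1358 (without SPF replicate 2) to 3484 (without SPF replicate 13) with single arrays left out, with 1519 without GF replicate 2 and 1861 without SPF replicate 4. Some of these fits hold fewer arrays, and the cause of these differences was not tested. The share called higher was 49.7% and became 68.4% with median scaling, 57.5% with cyclic loess and 29% with median scaling over the tested probes, an alternative chosen after seeing the data. Replicate numbers did not pair the arrays (correlations of same-numbered deviations -0.09, -0.55 and -0.13), and with the number as a block 2975 probes were called. Reg3g, not called, had a log2 fold change of -0.43 with the replicate block and -0.37 without SPF replicate 13, and 0.68 without SPF replicate 4. Of the 103 called genes considered for naming none changed direction in the settings run, and 69 remained called in the 8 arrays alone, 85 with the epithelial covariate, 72 without SPF replicates 2 and 4 and 10 by the t-test after adjustment.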
